A study of Auxenochlorella pyrenoidosa with 12 samples.

Results

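In Chlorella pyrenoidosa exposed to potassium peroxymonosulfate (PMS), 262 contigs of the assembled transcriptome were lower than the control on day 0 of exposure and were lower again on day 12. They were chosen on the authors' FPKM values, which are fragments scaled to contig length and to the library total. A contig was taken when both control libraries held at least 3 FPKM and its mean log2(FPKM + 1) lay at least 1 below the control, a 2-fold fall, on day 0 and on day 12. Of the 30814 contigs in the table, 10369 met the control minimum, 865 of these also met the day 0 condition and 4021 the day 12 condition. The 262 that met both were 30.3% of the day 0 falls and 6.52% of the contigs low on day 12. Falls on day 0 and day 12 chose the contigs, so these falls are described without a test.

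Chlorella pyrenoidosa (also Auxenochlorella pyrenoidosa) is a unicellular freshwater green alga, and RNA came from whole cells. The unexposed group is labelled only as the control, and its day is not stated unambiguously. The 5 exposed groups received 8.49 mg/L PMS, 0.5 of the acute median effective concentration (EC50), and were sampled at the start (day 0) and then every 3 days up to day 12, each group with 2 libraries. No control of a later day was analysed here, so PMS and the age of the culture cannot be told apart in a later difference from the control.

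PMS is a strong oxidant used in water treatment, and its activation yields sulfate and hydroxyl radicals that attack lipids, proteins and pigments. Algal cells are known to answer such oxidants by changing transcripts for photosynthesis, for the repair of proteins and for antioxidant enzymes. The contigs are rows of a de novo assembly made with names in the style of the Trinity assembler. The table pairs none of them with a gene name, so no function is given to any contig below, and the contigs are described by their levels and by what their names share.

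Total FPKM per library ran from 487140 to 603105, and the read depth behind the libraries is unknown. FPKM is a share of a library, so a lower value cannot be told apart from a rise of other transcripts, and in bulk RNA fewer cells making a transcript cannot be told apart from less of it per cell. With all libraries rescaled by their median ratio, the median contig tested moved up against the control by 0.45 on the log2 scale for day 3, with shifts of 0.28, 0.24 and 0.27 for days 6, 9 and 12. After rescaling, 121 contigs met the rule, all of them among the 262. All 262 still lay below the control on both chosen days, but 211 reached 2-fold on day 0 and 190 at day 12.

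Most of the 262 were transcripts of low to moderate level in the control. Their control mean had a median of 5.91 FPKM and ran from 3.11 to 4486 FPKM, while the 10369 contigs over the control minimum had a median of 11.1 FPKM. A control mean under 10 FPKM was found for 194 of the 262 (74.0%) and for 45.8% of the 10369, and 13 of the 262 reached 100 FPKM. Around the limits of the rule values were continuous. The last contig inside and the nearest one outside had a day 12 difference of -1.0013 and -0.9998 on the log2 scale, and a day 0 difference of -1.0006 and -0.9995. For the lower control library these values were 3.04 and 3.00 FPKM.

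The median of the 262 contigs was 6.56 FPKM in control library 1, 5.53 FPKM in control library 2, and then 2.06 and 1.52 FPKM at day 0. Day 3 gave 0.445 and 0.698 FPKM, day 6 gave 0.628 and 0.717, day 9 gave 0.807 and 1.48, and day 12 gave 1.28 and 1.19. The median thus stood lowest on days 3 and 6, and every exposed library lay below both control libraries. As a share of its own control mean, the median contig held 29.8% at day 0, 8.89% at day 3, 10.6% at day 6, 17.8% at day 9 and 20.2% at day 12.

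**Figure D1:**
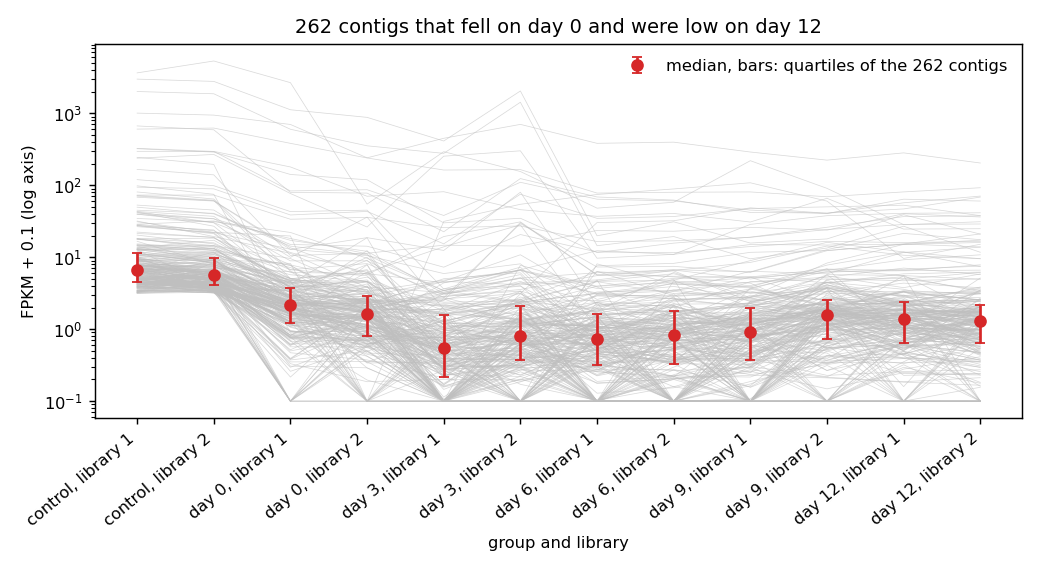
FPKM + 0.1 on a log axis in each of the 12 libraries: grey lines are the 262 contigs, red points their median and red bars the quartiles. The median lies at 6.56 and 5.53 FPKM in the control libraries and at no more than 2.06 FPKM in any exposed library, lowest in day 3 library 1 at 0.445.

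Days 3, 6 and 9 took no part in the choice, although the control they are set against did. On the log2(FPKM + 1) scale the median difference from the control was -2.09 at day 3, -2.08 at day 6 and -1.80 at day 9, beside -1.36 at day 0 and -1.65 at day 12. At least 2-fold below the control were 247 of the 262 at day 3 (94.3%), where 33.0% of the 17653 contigs tested and 44.7% of the 10369 over the control minimum were that low. On day 6 there were 252 (96.2%), beside 27.0% and 37.7%, and on day 9 there were 238 (90.8%), beside 25.4% and 37.2%. The control libraries that chose the contigs are in each of these differences, so nothing is read from the gap to the background.

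A continuous low state was the usual course. On all of days 3, 6 and 9, 226 of the 262 (86.3%) stood at least 2-fold below the control, beside 18.3% of the contigs tested and 27.5% of those over the control minimum. Of the other 36, 17 were low on days 3 and 6 but not on day 9, 8 on days 6 and 9, 4 on days 3 and 9, and 1 at day 6 alone. Only 6 were less than 2-fold below the control on all 3 days between the chosen ones. Rescaled values gave 177 of the same 262 low on all 3 days.

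The lowest exposed day was day 3 for 113 of the 262 contigs and day 6 for 90, together 77.5%. Days tied at 0 FPKM were counted for the earliest of them, and the number of such ties is not given. Day 3 was lowest for a similar share of other contigs, 43.7% of the 3759 low on day 12 without a day 0 fall and 36.9% of the 10369, beside 43.1% here. Day 6 was lowest for 13.2% and 11.5% of them, beside 34.4% here. Among the 262 the lowest day was day 0 for 20, day 9 for 22 and day 12 for 17. Day 0 was the highest exposed day for 132 and day 12 for 67. The low state was therefore deeper in the middle of the course than on either of the days that defined it, in levels that carry no test.

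Of all 262 contigs, 2 lay above the control at day 3, 2 at day 6 and 1 at day 9. The 6 that were less than 2-fold below it on all 3 of these days had low control levels, with a single exception. In 5 of them the control libraries held 3.40 to 8.85 FPKM. The exception, picked after its values were seen, had 31.0 and 22.1 FPKM in the control, then 19.6 and 0 FPKM at day 0. It stood at 31.4 and 54.3 FPKM at day 3, 74.3 and 88.8 at day 6, and 108 and 60.1 at day 9, before 9.52 and 15.0 FPKM at day 12. Its day 0 libraries disagree, and the library listed at 0 brought it under the rule.

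Set beside the other 603 day 0 falls, the 262 parted from them by day 3. The 603 had a similar median on day 0, -1.41 on the log2 scale, and then -0.92 at day 3, -0.59 at day 6 and -0.0019 at day 9. On all of days 3, 6 and 9, 61 of the 603 (10.1%) were at least 2-fold below the control. The 3759 contigs that were low on day 12 without a day 0 fall stood at 0.16 at day 0, -1.77 at day 3, -1.57 at day 6 and -1.61 at day 9, and 66.4% of them were low on all 3 days. The split by day 12 was part of the rule, so these differences are descriptions.

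**Figure D2:**
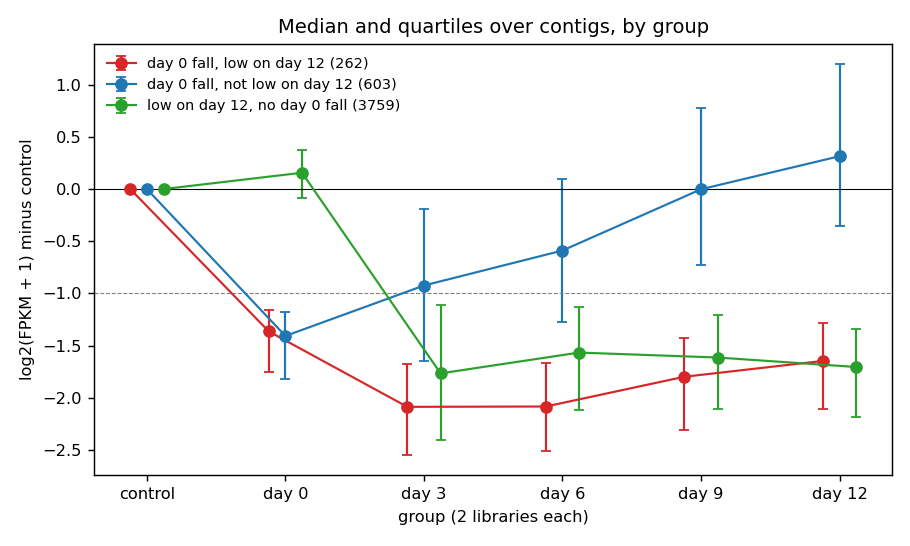
Difference in log2(FPKM + 1) from the control by group, as the median over contigs with bars for the quartiles, and a dashed line at the 2-fold limit of the rule. The 262 contigs lie at -2.09 at day 3 and -1.80 at day 9, while the 603 day 0 falls that were not low on day 12 lie at -0.92 and -0.0019.

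Fold changes between days 3, 6 and 9 hold no library of the rule, and most of the 262 were called in none of these comparisons. The spread behind the tests and the limit on low values do use the control, day 0 and day 12 libraries, so counts from a fit of days 3, 6 and 9 alone, on the same contigs, are given beside them. They were tested with limma on log2(FPKM + 1) with Benjamini-Hochberg adjustment over the 17653 contigs that averaged 1 FPKM or more, and 247 of the 262 passed this limit. The 15 that did not pass had a control mean of 3.11 to 4.16 FPKM, and 14 of them were below 0.01 FPKM in at least 1 exposed library. The control values of the 247 helped them through the limit, so each count is followed by that over all 262 without it. Of the 247, 175 (70.9%) were called in none of the 3 comparisons, as were 42.4% of the contigs tested. Without the limit 196 of the 262 (74.8%) were called in none, beside 58.7% of all contigs.

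From day 3 to day 6, 25 of the 247 rose (10.1%) and 22 fell (8.91%), where 31.2% of all contigs tested rose and 14.4% fell. Without the limit 20 of the 262 rose and 20 fell, beside 21.0% and 8.10% of all contigs. The median change of the 247 was 0.012 on the log2 scale, that of all contigs tested 0.23, and rescaling turned these into -0.048 and 0.047. Rescaled libraries gave 21 rising and 35 falling. The fit of days 3, 6 and 9 alone gave 14 rising and 24 falling. Without day 3 library 1 there were 12 rising and 36 falling, and without day 3 library 2, 29 and 17. The larger side thus depended on the scaling, the fit and the library. Without day 6 library 2, 15 rose and 17 fell.

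From day 6 to day 9, 8 of the 247 rose (3.24%) and 0 fell by limma, where 5.05% of all contigs tested rose and 1.50% fell. At an unadjusted p under 0.05, 32 of the 247 were higher and 7 lower, beside 2670 and 1663 of all 17653 contigs tested. The unadjusted counts with a library left out, given below, have no such background at hand. Without the limit 6 of the 262 rose and 0 fell, beside 2.91% and 0.879%. The fit of days 3, 6 and 9 alone gave 1 rising and 0 falling. It called 123 of all contigs tested in either direction, against 1157 in the main fit. The median change of the 247 was 0.26, against 0.026 for all contigs tested, and 179 of the 247 were higher on day 9. This median came with day 9 library 2, which was the higher of the pair in 184 of the 262 (70.2%) and in 57.1% of the contigs over the control minimum. Without that library the median change was 0.031 and 0 contigs were called, with 20 at an unadjusted p under 0.05. The number called was also 0 without day 6 library 1 and 0 without day 6 library 2, with 27 and 36 at an unadjusted p under 0.05. It was 26 without day 9 library 1, 14 without either day 3 library and 5 without either control library.

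Over the whole stretch from day 3 to day 9, 44 of the 247 rose (17.8%) and 18 fell (7.29%), where 34.9% of all contigs tested rose and 16.1% fell. Without the limit 41 of the 262 rose and 17 fell, beside 26.3% and 9.42%. The fit of days 3, 6 and 9 alone gave 39 rising and 20 falling. It called 7594 of all contigs tested in either direction, against 9004 in the main fit. The median change was 0.25 for the 247 and 0.31 for all contigs tested, or 0.11 and 0.091 respectively with rescaled libraries. Of the other 603 day 0 falls, 43.0% rose and 1.66% fell, with a median change of 0.78. Without day 3 library 1 the 247 gave 28 rising and 29 falling, and without day 3 library 2, 49 and 12. Without day 9 library 1 there were 57 and 12, and without day 9 library 2, 30 and 21.

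**Figure D3:**
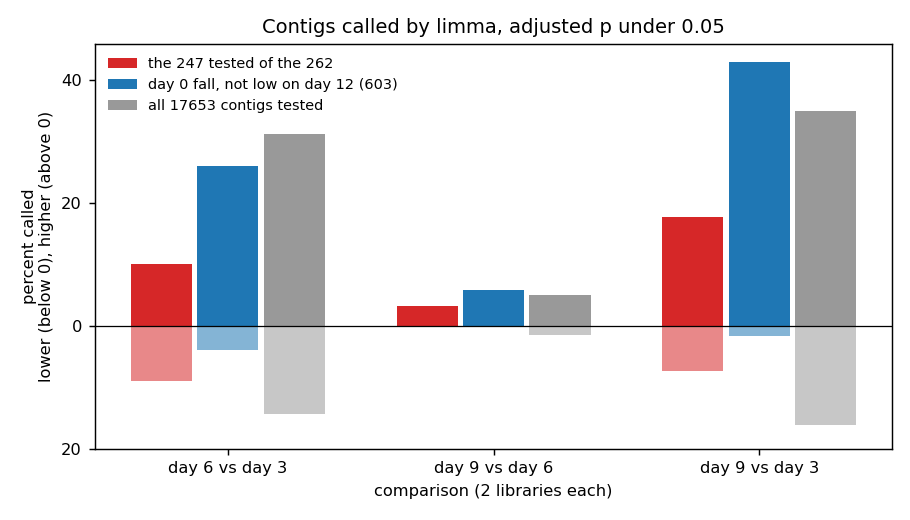
Percent of contigs called higher (above 0) or lower (below 0, paler) by limma in each comparison of 2 libraries with 2, for the 247 tested of the 262, the other 603 day 0 falls and all 17653 contigs tested. From day 3 to day 9, 17.8% of the 247 and 34.9% of all contigs tested are called higher.

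The tests of these contigs were less precise than those of most others. The median standard error of a day 9 minus day 3 change was 0.33 over the 247, 0.20 over all contigs tested and 0.16 over the tested contigs over the control minimum. Their median level over the libraries of days 3, 6 and 9 was 0.908 FPKM, against 3.63 FPKM for all contigs tested, and at such levels log2(FPKM + 1) understates a change. The other 603 day 0 falls had the same median standard error of 0.33 at a median level of 6.33 FPKM. How far level and spread set the number of calls was not tested.

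The 44 that rose from day 3 to day 9 came back only in part. Their median went from 7.31 and 6.51 FPKM in the control to 0.226 and 0.581 FPKM at day 3, 1.25 and 1.34 at day 6, and 1.98 and 2.29 at day 9. By day 9 none of the 44 had passed its control level, and 35 (79.5%) were still at least 2-fold below it. Of all 262, 1 was above the control on day 9 and 238 (90.8%) were at least 2-fold below it. The rule kept only contigs low on day 12, so the choice favoured an incomplete return. TRINITY_DN1106_c0_g1_i3_4 and TRINITY_DN346_c0_g1_i16_1 had the largest rises among the called contigs whose day 3 and day 9 libraries did not overlap.

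TRINITY_DN1106_c0_g1_i3_4 held 244 and 195 FPKM in the control, 1.28 and 2.07 at day 0, 2.54 and 3.03 at day 3, 30.2 and 32.0 at day 6, 48.5 and 40.7 at day 9, and 57.0 and 70.6 at day 12. Day 0 libraries were its lowest, and each later pair lay above the day 3 pair without overlap. Its change from day 3 to day 9 was 3.59 on the log2 scale (SE 0.18, limma adjusted p = 6.68e-07). The fit of days 3, 6 and 9 alone gave this change a limma adjusted p of 0.000201. Most of the change came from day 3 to day 6. On day 12 the mean of the contig was 29.1% of the control mean. The other contig with the same Trinity gene name over the control minimum met neither the day 0 nor the day 12 condition.

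TRINITY_DN346_c0_g1_i16_1 held 72.1 and 61.9 FPKM in the control, 4.94 and 5.82 at day 0, 0.598 and 0.686 at day 3, 7.51 and 8.12 at day 6, 11.6 and 12.3 at day 9, and 15.0 and 17.2 at day 12. It was lowest on day 3, at 0.959% of the control mean, and no 2 exposed groups overlapped. It rose by 2.42 on the log2 scale to day 6 (limma adjusted p = 8.61e-07). The further rise to day 9 was 0.55 (limma adjusted p = 0.0310). Calls from day 6 to day 9 leaned on single libraries, as given above. In all the contig rose by 2.98 (SE 0.12, limma adjusted p = 1.91e-07). The fit of days 3, 6 and 9 alone gave this whole rise a limma adjusted p of 0.000261. On day 12 the mean of the contig was 24.0% of the control mean.

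The 18 that fell from day 3 to day 9 had control means from 5.14 to 2879 FPKM, with a median of 54.4 FPKM against 5.91 FPKM for all 262. On day 3, 13 of the 18 (72.2%) stood at least 2-fold below the control, beside 94.3% of all 262. Their median was 58.8 and 50.1 FPKM in the control, 13.1 and 10.6 at day 0, 9.08 and 17.5 at day 3, and then 1.07 and 1.71 at day 6 and 2.07 and 2.63 at day 9. A control mean of at least 100 FPKM was found for 6 of the 18 and for 13 of all 262. One under 10 FPKM was found for 4 of the 18. The 18 were chosen by a fall from day 3, which favours a high level on that day. Their gaps to all 262 are descriptions only. In 17 of the 18 day 3 library 2 was the higher of its pair. All 262 leaned the same way, with a median day 3 library 1 minus library 2 difference of -0.22 on the log2 scale. Over the 10369 contigs above the control minimum this median was 0.0052.

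TRINITY_DN175_c0_g1_i10_2 held 2984 and 2775 FPKM in the control, 1120 and 878 at day 0, 412 and 2042 at day 3, 19.8 and 30.9 at day 6, 15.6 and 17.9 at day 9, and 38.8 and 20.8 at day 12. The day 3 libraries differed 4.96-fold and spanned both day 0 libraries, yet each lay far above every later library. From day 3 to day 9 it fell by 5.70 on the log2 scale (SE 0.62, limma adjusted p = 7.02e-05). The fit of days 3, 6 and 9 alone gave this fall a limma adjusted p of 0.00373. Day 3 libraries set the size of this fall, with -4.54 without library 2 and -6.85 without library 1.

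TRINITY_DN449_c0_g1_i90_1 took almost the same course. It held 2008 and 1867 FPKM in the control, 600 and 353 at day 0, 277 and 1424 at day 3, 14.3 and 19.3 at day 6, 9.40 and 13.3 at day 9, and 26.9 and 11.6 at day 12. Its day 3 libraries differed 5.13-fold, again with library 2 the higher. It fell by 5.69 on the log2 scale from day 3 to day 9 (SE 0.67, limma adjusted p = 0.000117). The fit of days 3, 6 and 9 alone gave this fall a limma adjusted p of 0.00393. On day 9 the mean was 0.587% of the control mean for this contig and 0.582% for TRINITY_DN175_c0_g1_i10_2.

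**Figure D4:**
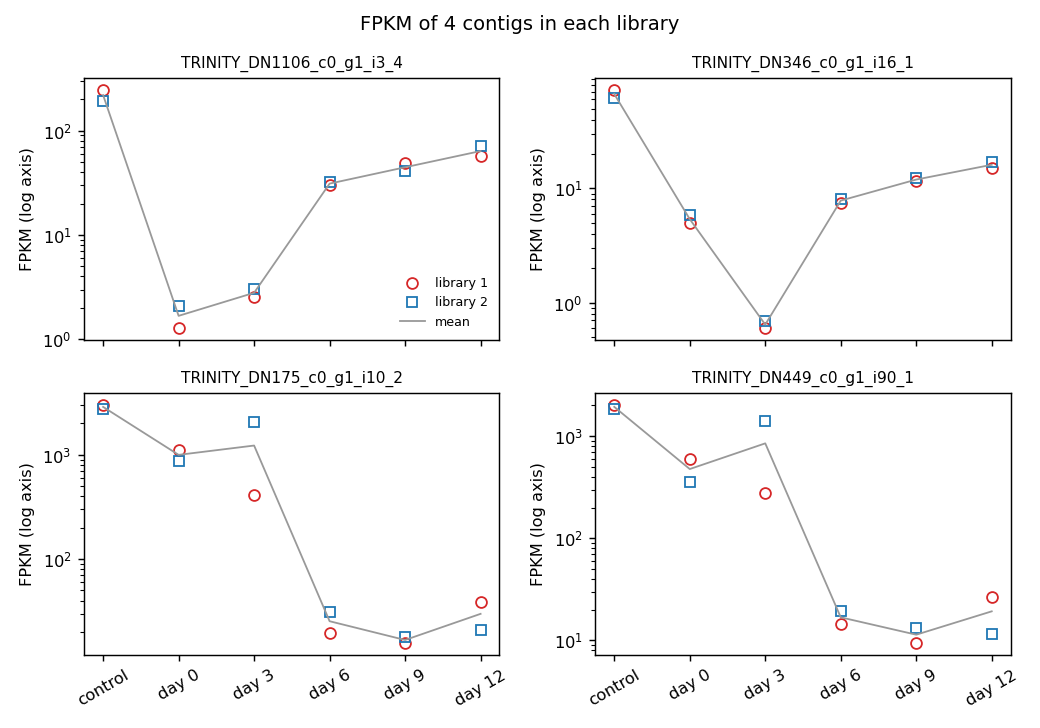
FPKM on a log axis in library 1 (circles) and library 2 (squares) of each group, with a line through the means, for the 4 named contigs. The upper pair is lowest on day 0 or day 3 and climbs to day 12, while the lower pair holds at least 277 FPKM in both day 3 libraries and at most 38.8 FPKM from day 6 on.

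The contig with the highest control level had the same Trinity gene name as TRINITY_DN449_c0_g1_i90_1 and was picked after its values were seen. It held 3643 and 5330 FPKM in the control, 2664 and 54.6 at day 0, 293 and 155 at day 3, 48.0 and 58.0 at day 6, 219 and 90.4 at day 9, and 28.3 and 31.0 at day 12. Its day 0 libraries lay far apart, with library 1 nearer to the control and library 2 nearer to the later days. The names of these contigs differ in the last field, whose meaning is unknown, so a shared gene is not established. Contigs of the same gene can share fragments, and no label says how the authors divided them.

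Other abundant contigs, also picked after their values were seen, took different courses. A contig at 120 and 98.5 FPKM in the control was at 43.0 and 45.0 at day 0, 3.52 and 7.18 at day 3, 0.674 and 0.805 at day 6 and 1.75 and 1.53 at day 12. Its level dropped in stages and stayed low. A contig at 166 and 139 FPKM in the control was already at 10.5 and 11.3 at day 0, kept 14.6 and 14.2 at day 3 and stood at 40.1 and 36.1 at day 12. A contig at 1006 and 943 FPKM in the control held 699 and 240 at day 0 and 449 and 701 at day 3, where it lay less than 2-fold below the control, and 282 and 204 at day 12.

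A few contigs decided how much of a library the 262 made up. Together they held 2.85% and 2.88% of the total FPKM in the control libraries, 1.15% and 0.475% at day 0, and 0.403% and 1.09% at day 3. On day 6 the share was 0.212% and 0.231%, on day 9 0.251% and 0.273%, and on day 12 0.273% and 0.255%. The sum thus differed widely within the day 0 and day 3 pairs and was even from day 6 on. The 3 contigs highest in the control made up 56.1% and 62.0% of the sum in the control libraries, 64.0% and 44.9% in those of day 0, 41.6% and 62.6% in those of day 3, and at most 18.1% in any library from day 6 on. Without them the share was 1.25% and 1.10% in the control, 0.414% and 0.262% at day 0, 0.235% and 0.409% at day 3, and 0.254% and 0.242% at day 12. With 2 libraries against 2 an exact permutation test cannot give a two-sided p below 0.333, so these shares were not tested.

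**Figure D5:**
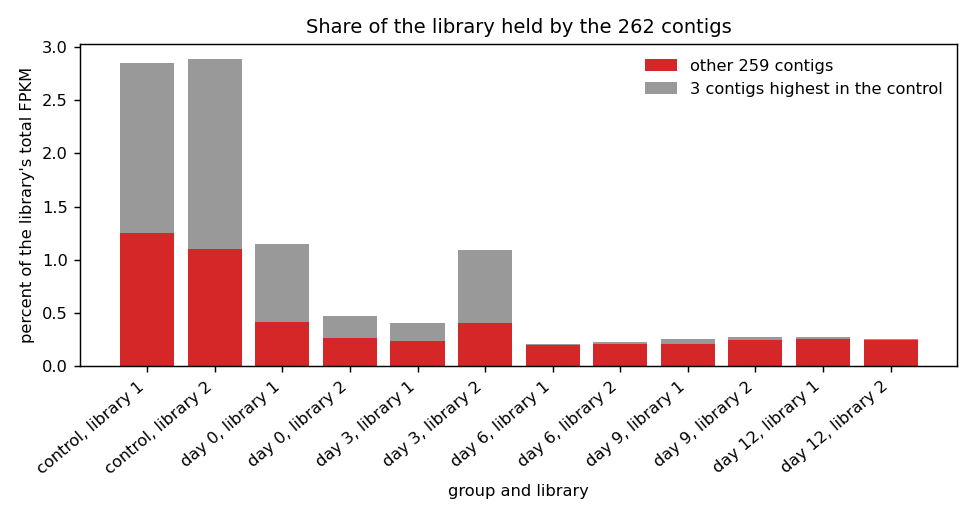
Percent of the total FPKM of each library held by the 262 contigs, with the 3 contigs highest in the control in grey and the other 259 in red. The bars reach 2.85% and 2.88% in the control, differ within the day 0 and day 3 pairs, and lie between 0.212% and 0.273% from day 6 on.

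Libraries of a group differed more for these contigs than for the 10369 over the control minimum, though on days 3 and 9 less than for the other 603 day 0 falls. On day 0, 21.8% of the 262 differed over 2-fold on log2(FPKM + 1) between the libraries, with library 1 the higher in 40 and library 2 in 17, against 2.80% of the contigs over the control minimum and 11.1% of the 603. Among contigs with a control mean under 10 FPKM these values were 19.1% and 3.66%. On day 9, 15.6% of the 262 differed over 2-fold, with library 2 the higher in 38 and library 1 in 3, against 3.64% of the contigs over the minimum and 35.3% of the 603. On day 3, 11.1% did, with library 2 the higher in 25 and library 1 in 4, against 1.66% and 13.1%. In the control 2.29% did, against 0.203% of the contigs over the minimum and 0.829% of the 603, and the median contig was 0.19 higher in library 1.

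Some contigs were listed near 0 in exposed libraries. Below 0.01 FPKM were 12 and 16 of the 262 in the day 0 libraries, 54 and 33 at day 3, 45 and 44 at day 6, 41 and 22 at day 9, and 19 and 19 at day 12, with 0 in the control as the rule requires. The choice itself leaned on single libraries. Without control library 2, 566 contigs met the rule, 237 of them among the 262, and 485 of the 566 were low on days 3, 6 and 9. A stricter form, added after the data were seen, asks that every day 0 and day 12 library lie at least 2-fold below both control libraries on FPKM + 1. It kept 91 of the 262, and 84 of these were low on days 3, 6 and 9, with a median of -2.24 at day 3.

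Among the 262, between 3 and 100 FPKM, larger falls went with higher control levels, and log2(FPKM + 1) itself limits how far a low contig can drop. For the 95 contigs with a control mean of 3 to 5 FPKM the median difference from the control was -1.90 at day 3 and -1.36 at day 12. For the 99 between 5 and 10 FPKM it was -2.20 and -1.71, and for the 55 between 10 and 100 FPKM -2.92 and -2.12. Over all 10369 contigs the day 3 medians of these 3 levels ran the other way, at -0.97, -0.89 and -0.72. In the 13 of the 262 above 100 FPKM the order of the days was different, with -1.85 at day 0, -2.26 at day 3, -3.24 at day 6 and -3.01 at day 12.

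The names of the contigs held features that the rule did not use. The last field of each name is 1, 2, 3 or 4, for which no meaning was found. Number 4 was carried by 129 of the 262 (49.2%) and by 25.2% of the contigs over the control minimum, and number 1 by 77 (29.4%) beside 22.2%. Numbers 2 and 3 were less frequent than in that background, with 22 (8.40%) beside 26.7% and 34 (13.0%) beside 25.9%. Within each number, 4.93% of the contigs over the control minimum with number 4 belonged to the 262, 3.34% with number 1, 1.27% with number 3 and 0.796% with number 2. The lean to number 4 went with the day 0 condition, which 14.8% of number 4 met, beside 8.25% of number 1, 5.74% of number 3 and 4.85% of number 2. The day 12 condition was met by 37.1% to 41.4% of each number. Among the day 0 falls the numbers also differed in how many were low on day 12. These were 77 of 190 with number 1 and 22 of 134 with number 2. For number 3 they were 34 of 154 and for number 4 129 of 387. Medians on day 3 were similar for all 4 numbers, from -2.33 for number 3 to -2.01 for number 1. These shares are descriptions without a test.

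The 262 carried many Trinity names. Leaving out isoform and last field, they had 259 Trinity gene names and 255 cluster names. Among them, 3 gene names had 2 contigs. A full Trinity name occurred among the 262 with both number 1 and number 4. A gene name shared across numbers thus cannot be taken to mark a single gene. Another 58 contigs with the same gene names were over the control minimum. Of these, 2 (3.45%) met the day 0 condition and 22 (37.9%) the day 12 condition. Over all contigs above the minimum the shares were 8.34% and 38.8%. These shares include the 262, which met both conditions, while the 58 leave them out by definition. The gap between them is thus not on like terms, and nothing is read from it. Isoform numbers above 1 were carried by 34 of the 262 (13.0%) and by 24.0% of the contigs over the control minimum.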

How the data were processed

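RNA sequencing libraries were made with an Illumina TruSeq kit from total RNA, per the labels' protocols. The authors deposited FPKM values, 1 column per library, for contigs with Trinity names, and 0 columns lacked a sample. The assembler's settings, like the program that computed FPKM, were not given in the sources used here. Groups came from the titles and treatment labels. No label says that the libraries of a group were separate cultures. The p-values then reflect only how far these samples vary, and that may be technical.

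The contigs, comparisons and lists were chosen with earlier results of these data known. Values were analysed as log2(FPKM + 1). The test took contigs that averaged 1 FPKM or more across 12 libraries, 17653 in all, and 13161 were left out. Days 3, 6 and 9 were compared with limma 3.58.1 in R 4.3.3, with all 12 libraries in 1 fit of group means (6 residual degrees of freedom), an intensity trend, and Benjamini-Hochberg adjustment per comparison at 0.05. The fit was tested on simulated data. Named contigs were the 2 largest rises and 2 largest falls from day 3 to day 9 among the 262 that were called with libraries that did not overlap. Gene lists and cell type markers could not be used, since the table holds no gene names. Libraries of a group shared 0 identical values above 0. No read counts were at hand, so no counting interval is given. Python 3.11.15 made summaries and figures. Alternatives were another pseudocount, libraries rescaled by their median ratio, other limits on low values, a fit of days 3, 6 and 9 alone, a replicate block, each library left out in turn, and a stricter rule added after the data were seen.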

Additional observations from a re-analysis of the deposited data

How the results depend on the processing

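Direction and call of the 4 named contigs from day 3 to day 9 were the same under all 18 alternatives. The number of contigs meeting the rule was 262, and it was 396 with a pseudocount of 0.1, 121 with rescaled libraries, 60 with both control libraries at least 10 FPKM, 91 in the stricter form, and 247 to 566 with a library left out. Of these, 353, 96, 53, 84 and 205 to 485 were low on days 3, 6 and 9. Medians on days 3, 6 and 9 were -3.33, -3.04 and -2.39 when the pseudocount was 0.1, and -3.05, -3.20 and -2.87 when the control minimum was 10 FPKM. On day 6 the median was -2.01 for the 121 contigs chosen on rescaled libraries and -2.23 in the stricter form. With a library left out it was -2.31 to -2.02 on day 3, -2.26 to -1.99 on day 6 and -1.99 to -1.53 on day 9. Each of these medians is over the contigs that met the rule in that setting. For the same 262 contigs, rescaling gave medians of -1.71 at day 3, -1.79 at day 6 and -1.53 at day 9.

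The 47 calls from day 3 to day 6 became 22 with a minimum mean of 5 FPKM and 23 in the stricter form, where 47 and 85 contigs were tested, and 32 to 53 with a library left out. The 8 calls from day 6 to day 9 became 1 in a fit of days 3, 6 and 9 alone, 5 in the stricter form, and 0 to 26 with a library left out. The 62 calls from day 3 to day 9 became 25 with the minimum mean of 5 FPKM, 29 in the stricter form and 51 to 69 with a library left out. Where tested contigs were not fewer, the cause was not tested. The labels give groups the same replicate numbers without saying that a number marks a shared culture or batch. The library 1 minus library 2 differences correlated across contigs at 0.41 between days 3 and 6. The correlation was 0.25 between days 3 and 9 and 0.28 between days 6 and 9. These 3 pairs, the ones compared by limma, were the only ones above 0.1 among all 15 pairs of groups. Another 4 pairs were below -0.1, the lowest at -0.19. With the replicate number as a block the calls were 44, 8 and 60. Over all contigs tested the calls were then 7805, 880 and 8870. Read depth is unknown, so what it limits cannot be stated.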
